A study of Homo sapiens with 18 samples.

Results

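The 10 genes described here encode parts of the Notch pathway: the receptors NOTCH1, NOTCH2 and NOTCH3, the ligands DLL1, DLL3, JAG1 and JAG2, the target genes HES1 and HEY1, and HES6, a relative of HES1. They were chosen by name, and each matched 1 Ensembl gene among the 57905 that were counted. In ABCC1-overexpressing cells HEY1 was higher than in empty vector control cells in all 3 experiments, by 2.21-fold, 1.84-fold and 2.24-fold, and no library of one line reached the range of the other. It was the only member that passed the test in every experiment. NOTCH2 was higher by 1.51-fold and 1.69-fold in the first 2 experiments, and HES1 was lower by 1.28-fold in the first and by 1.99-fold in the last.

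Notch receptors and their ligands sit in the membranes of neighbouring cells. When a ligand binds, ADAM proteases and then gamma-secretase, a protease complex that also cuts the amyloid precursor protein (APP), release the intracellular part of the receptor. This part enters the nucleus and joins the DNA-binding protein RBPJ and a Mastermind protein to switch on target genes, most often of the HES and HEY families, which repress transcription. In developing neural and sympathoadrenal tissue these repressors hold back proneural factors.

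BE(2)-m17 is an established human neuroblastoma cell line. Cells of both lines carried the vector pSBbi-Hyg-APP, which adds an APP transgene, so there were no libraries without it. The control line (Puro) also carried the empty vector pSBbi-Pur, and the other line carried pSBbi-Pur with codon-optimized wild-type ABCC1, which encodes a membrane export pump. The vectors insert into the genome by the Sleeping Beauty transposase at sites that were not mapped. Cells were plated at 14000000 per well and lysed on day 4, in 3 cultures of each line in each of 3 experiments (RNA1, RNA2 and RNA3), which makes 18 libraries. The labels only number the experiments. The paper lists cryopreserved cells and then newly transfected cells as its repeats, so RNA2 and RNA3 were taken in that order. Read this way, RNA2 would hold stored cells of the RNA1 lines, and only RNA3 would come from a new transfection. RNA1 and RNA2 would then not be independent transfections. RNA1 was prepared with a TruSeq kit according to the paper, although its labels also name the SMARTer Pico kit used for the repeats, and levels were therefore compared between lines only within an experiment. The 3 cultures of a group were platings of a transfected line, and p-values measure the spread between such cultures.

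Between 8866994 and 57937596 read pairs were assigned per library, and RNA3 was the shallowest experiment, with at most 13332413. The inserted ABCC1 had between 51035 and 594404 counts in the ABCC1-overexpressing libraries and between 0 and 15 in the controls, so every library matched its label. Endogenous ABCC1 did not pass the test in any experiment. RNA2 and RNA3 held many reads on genes that a neuroblastoma cell should not express. Levels were expressed in CPM, the count of a gene relative to the normalized total of its library. Over 372 olfactory receptor genes, which are active in the nose and served as a measure of background, the level was 0.574 ± 0.0871 CPM per kilobase of exon in the Puro libraries of RNA2 and 0.301 ± 0.144 in the ABCC1 libraries (SD, n = 3). In RNA3 these levels were 1.56 ± 0.0919 and 1.23 ± 0.153, against 0.00486 and 0.00403 in RNA1. In all 3 experiments the background was lower in every ABCC1 library than in every Puro library, and its values are given beside the members it touches. A covariate of background was therefore partly confounded with the line, and a call lost with it cannot be assigned to background.

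The labelled cell type was checked against markers of adrenergic neuroblastoma, the noradrenergic state of these tumours. PHOX2A and HAND2 stood at 243 and 233 CPM per kilobase in the Puro cells of RNA1. In RNA1 the sum over the 10 adrenergic markers was 1074 to 1172 CPM per kilobase in Puro libraries and 790 to 918 in ABCC1 libraries. The lines overlapped in the adrenergic sums of RNA2, at 363 to 484 and 438 to 531, and in RNA3, at 512 to 806 and 475 to 572. For 12 mesenchymal markers the sums were 101 to 104 in Puro and 109 to 118 in ABCC1 libraries of RNA1. The lines were also apart in RNA2, at 50.0 to 66.3 and 71.3 to 80.7, and overlapped in RNA3, at 59.5 to 78.1 and 72.0 to 78.3. Schwann lineage markers were close to absent, with SOX10 at 1 count at most and FOXD3 at 0 counts in RNA1. In bulk RNA, fewer cells of a state and less RNA per cell cannot be told apart, and the part of these marker shifts in the Notch results was not tested.

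Levels per kilobase of exon show which members the cells used, and RNA1 gives them with the least background. In the Puro cells of RNA1, DLL3 and HES6 stood highest, with medians of 13.9 and 13.7 CPM per kilobase and overlapping ranges. HEY1 followed at 7.53, and HES1 and NOTCH2 came next at 3.74 and 3.66, with ranges that also overlapped. JAG2 stood at 0.594, above NOTCH3 at 0.229, JAG1 at 0.190, NOTCH1 at 0.141 and DLL1 at 0.138, and each of the last 4 overlapped its neighbour in this order. Among the 10 members NOTCH2 was therefore the most abundant receptor transcript and DLL3 the most abundant ligand transcript, while DLK1, a non-canonical ligand outside the 10, stood at 434 CPM per kilobase. DLL3 encodes an atypical ligand that acts mainly within the cell that makes it and inhibits Notch there.

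In RNA2 and RNA3 the low members stood close to the background. Background amounted to 78.4% of the mean level of DLL1 in the Puro cells of RNA2 and 97.3% in those of RNA3. It was 120% and 109% in the ABCC1-overexpressing cells. For NOTCH1 it was between 67.9% and 77.8% over the 4 groups. DLL3 and HES6 were the least affected, with at most 15.2% and 10.7%. By this measure, values of DLL1 and NOTCH1 in the repeats are thus mostly background. A second measure, the level over 4073 genes of at least 1000 bases without counts in RNA1, gave lower shares. In the repeats these ran from 49.0% to 58.4% for NOTCH1 and from 58.8% to 93.4% for DLL1. Shares and subtracted levels given below use the olfactory receptor genes and would be smaller or closer to the raw levels by the second measure.

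**Figure D1:**
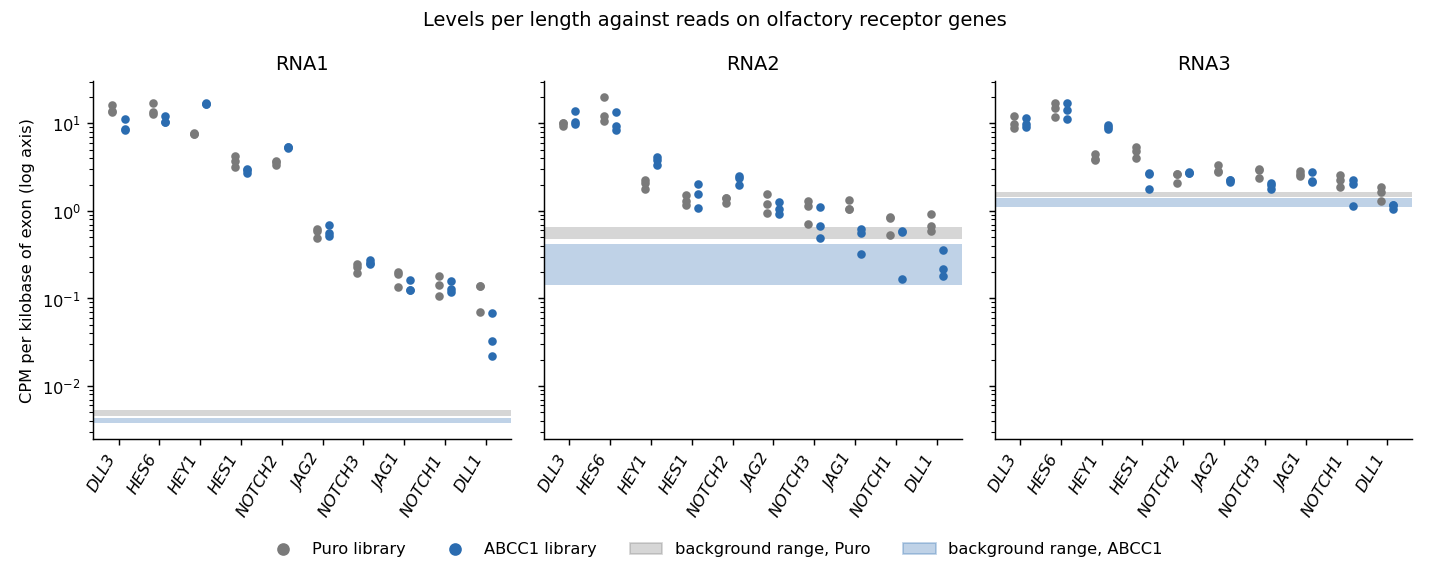
Level of each member per kilobase of exon (y axis, CPM per kilobase, log scale) in each library of RNA1, RNA2 and RNA3, with Puro libraries in grey and ABCC1 libraries in blue, and the range of the level over olfactory receptor genes as shaded bands. In RNA1 all members lie above the bands, whereas in RNA2 and RNA3 DLL1 lies within or beside them and DLL3 and HES6 lie well above.

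In RNA1, 5 of the 9 members tested passed an adjusted p-value of 0.05 by edgeR's quasi-likelihood test, NOTCH2 and HEY1 with higher and DLL3, HES1 and HES6 with lower levels in the ABCC1-overexpressing cells. Over all 16995 genes tested, 37.6% passed, 17.9% higher and 19.7% lower. DLL1 had too few counts to be tested. In RNA2, 2 of 10 members passed, NOTCH2 and HEY1, both higher, where 1.7% of 34091 genes passed, 1.25% higher and 0.458% lower. In RNA3, 2 of 10 passed, HEY1 higher and HES1 lower, where 2.8% of 36509 genes passed, 2.03% higher and 0.767% lower. The median log2 fold change (log2FC) of the members tested was −0.12, −0.32 and −0.25 in RNA1, RNA2 and RNA3, and that of all genes tested was 0.01, −0.19 and −0.09. With RLE size factors in place of TMM, the median of all genes in RNA2 was −0.08, a shift of over 0.1, so small negative values in RNA2 lie near the middle of all genes.

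**Figure D2:**
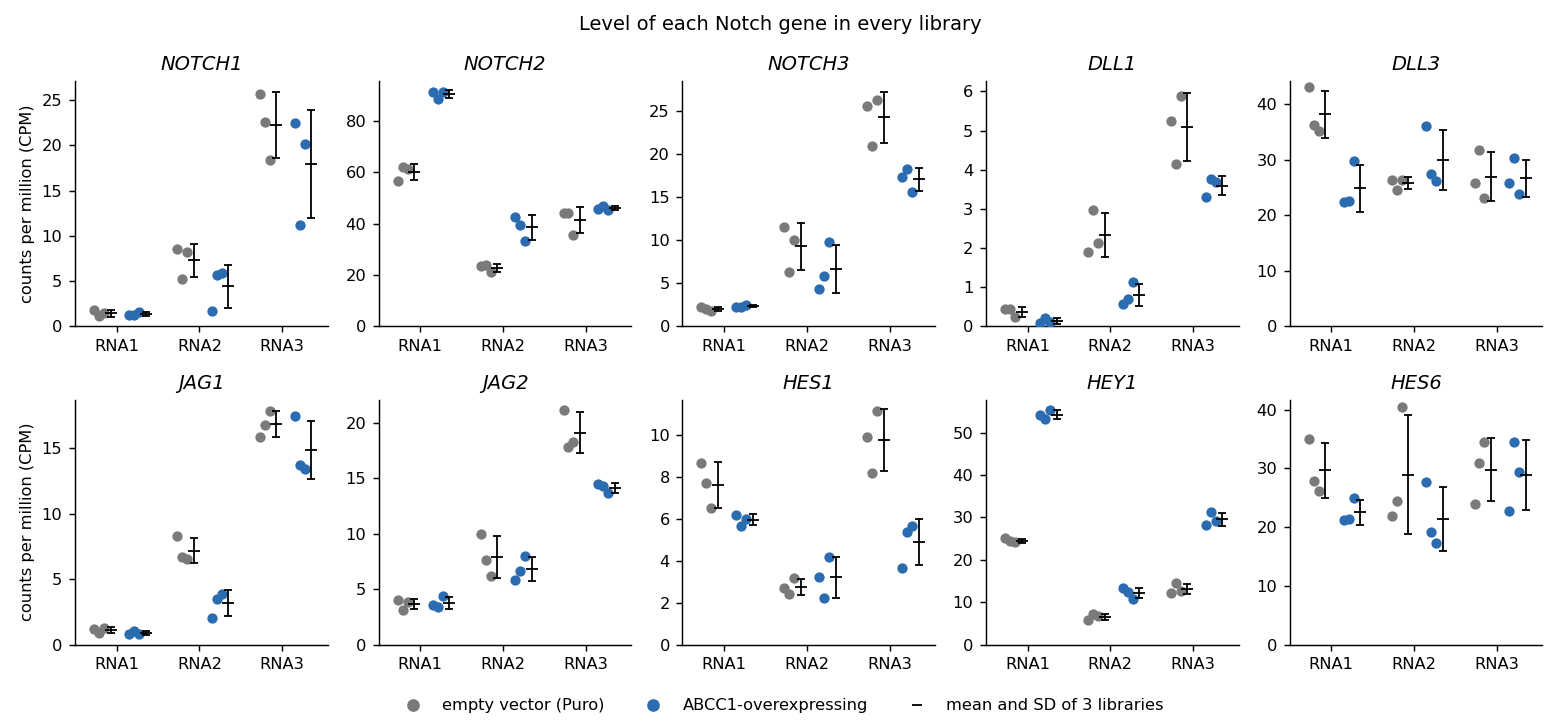
Normalized level of each member (y axis, CPM, from 0) in the 3 Puro libraries (grey) and 3 ABCC1 libraries (blue) of each experiment, with the mean and SD. HEY1 separates the lines in every experiment, from 24.2 to 25.1 CPM against 53.2 to 55.4 CPM in RNA1, and NOTCH2 separates them most widely in RNA1 and RNA2.

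HEY1 encodes a basic helix-loop-helix (bHLH) repressor that Notch switches on directly in many tissues. Its gene lies on chromosome 8 at 80676245 to 80680098 (GRCh37, minus strand). In RNA1 its level was 25.1, 24.3 and 24.2 CPM in the Puro libraries and 54.1, 53.2 and 55.4 CPM in the ABCC1 libraries. The replicates of a line differed by little beside the gap between the lines, with a log2FC of 1.14 (SE 0.05, adjusted p = 5.16e-08, edgeR). In RNA2 the Puro libraries had 5.80, 7.26 and 6.67 CPM and the ABCC1 libraries 13.2, 12.5 and 10.8 CPM. All ABCC1 libraries again stood above all Puro libraries, with a log2FC of 0.88 (SE 0.21, adjusted p = 0.0374, edgeR). In RNA3 the values were 12.3, 14.5 and 12.6 CPM against 28.2, 31.2 and 29.2 CPM, a log2FC of 1.17 (SE 0.17, adjusted p = 6.89e-07, edgeR).

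With 3 libraries a line, the smallest two-sided p of an exact permutation test is 0.1, and HEY1 reached it in each experiment. Background amounted to 28.2% of HEY1 in the Puro cells of RNA2 and 8.0% in the ABCC1-overexpressing cells, and to 38.4% and 13.5% in RNA3. With this background subtracted from each library, the ratio of group means was 2.37 in RNA2 and 3.16 in RNA3, with no overlap of the lines. In RNA2 the call was lost when any library other than ABCC1 replicate 3 was left out, with a log2FC of 0.83 to 0.97 and adjusted p-values of 0.0565 to 0.154 (edgeR). It was also lost with background as a covariate, where the log2FC was 0.66 (adjusted p = 0.792, edgeR). In RNA1 and RNA3 it held under every alternative tried.

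HES1 encodes the best known Notch target, a bHLH repressor whose own level oscillates in neural progenitors. In RNA1 its level was 8.68, 7.70 and 6.50 CPM in the Puro libraries and 6.20, 5.67 and 6.01 CPM in the ABCC1 libraries. The ABCC1 libraries lay just below the lowest Puro library, with a log2FC of −0.36 (SE 0.11, adjusted p = 0.0230, edgeR). In RNA3 the Puro libraries had 9.92, 8.21 and 11.2 CPM and the ABCC1 libraries 3.65, 5.38 and 5.66 CPM, with no overlap. The log2FC there was −0.99 (SE 0.25, adjusted p = 0.0118, edgeR). In RNA2 the values overlapped, at 2.68, 2.40 and 3.17 CPM against 3.20, 2.24 and 4.18 CPM, and HES1 did not pass the test (log2FC 0.23, SE 0.39, adjusted p = 0.762, edgeR).

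Both HES1 calls depended on single libraries and on the model. In RNA1 the call was lost without Puro replicate 1 (adjusted p = 0.116, edgeR), Puro replicate 2 (0.0641) or ABCC1 replicate 2 (0.0574). It was also lost with background as a covariate, where the log2FC was −0.19 (adjusted p = 0.595, edgeR), and in a joint fit of all 18 libraries (log2FC −0.25, adjusted p = 0.867, edgeR). Of the HES1 level in RNA1, background made up 0.131% in Puro and 0.139% in ABCC1 cells. In RNA3 the call was lost without Puro replicate 1 (0.0837), Puro replicate 3 (0.167) or ABCC1 replicate 1 (0.0639) and with the covariate (0.112), where the log2FC was −1.14. Background amounted to 33.0% of HES1 in the Puro cells and 51.9% in the ABCC1-overexpressing cells of RNA3, where the background itself was lower in the latter. After its subtraction the HES1 level was 3.17 ± 0.632 CPM per kilobase in Puro and 1.14 ± 0.683 in ABCC1 libraries (SD, n = 3), a 2.78-fold difference with no overlap. In RNA2 the subtraction gave a ratio in the other direction, with ABCC1 libraries 1.65-fold higher and overlapping lines.

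HES6 encodes a relative of HES1 that counteracts it and promotes neuronal differentiation. In RNA1 it had 35.0, 27.8 and 26.1 CPM in the Puro libraries and 21.2, 21.4 and 25.0 CPM in the ABCC1 libraries. Puro replicate 1 stood above the other controls and ABCC1 replicate 3 came close to them, with a log2FC of −0.40 (SE 0.11, adjusted p = 0.0176, edgeR). The call was lost without Puro replicate 1 (adjusted p = 0.0585, edgeR) or ABCC1 replicate 1 (0.0546). It was also lost with background as a covariate (log2FC −0.43, adjusted p = 0.233, edgeR) and in the joint fit of all 18 libraries (log2FC −0.30, adjusted p = 0.716, edgeR). Of the HES6 level in RNA1, background made up 0.0333% in Puro and 0.0364% in ABCC1 cells. In RNA2 the lines overlapped, with 21.8, 24.5 and 40.5 CPM against 27.7, 19.2 and 17.4 CPM, and in RNA3 they ranged from 23.9 to 34.5 CPM and from 22.7 to 34.5 CPM. HES6 passed the test in neither (log2FC −0.44 and −0.04, adjusted p = 0.225 and 0.935, edgeR).

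The sequences before the starts of HES1 and HES6 are shown because both genes were lower in RNA1 while a single one of them carries the letters that RBPJ binds. Promoters of 7 of the 10 members were matched by symbol in the RefSeq table of GRCh38.p14, and DLL1, DLL3 and HEY1 were not. The 250 bases before each start were searched on both strands for TGGGAA, the core of the RBPJ motif, which is marked in capitals. HES1 (chr3:194135898-194136147, plus strand) held 2 matches, 84 to 79 and 70 to 65 bases before the start, and HES6 (chr2:238240039-238240288, minus strand) held 0.
HES1: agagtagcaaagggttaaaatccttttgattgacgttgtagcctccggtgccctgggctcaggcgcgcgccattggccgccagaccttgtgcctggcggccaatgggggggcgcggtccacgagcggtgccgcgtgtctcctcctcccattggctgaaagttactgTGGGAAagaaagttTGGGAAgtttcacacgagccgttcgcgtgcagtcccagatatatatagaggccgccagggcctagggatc
HES6: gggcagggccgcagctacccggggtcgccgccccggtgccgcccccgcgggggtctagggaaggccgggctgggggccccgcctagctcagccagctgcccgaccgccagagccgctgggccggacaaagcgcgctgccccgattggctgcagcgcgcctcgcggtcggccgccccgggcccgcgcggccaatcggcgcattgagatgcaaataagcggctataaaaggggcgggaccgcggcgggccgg

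TGGGAA occurred in 20.8% of all 35116 promoter windows of this length. The longer form GTGGGAA, which contains it, occurred in 5.43% and also in HES1, at the match farther from the start. HES1 was the only one of the 7 matched members with either form. The HES6 and JAG2 windows held the E-box CANNTG, the letters that bHLH factors bind, which 61.8% of all windows held. A match describes these letters only and is not a measured binding site.

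Of the receptors among the members, NOTCH2 was the only one that passed the test. It did so in RNA1 and RNA2, which would share their transfected lines, and not in RNA3. Its gene lies on chromosome 1 at 120454176 to 120612240 (GRCh37, minus strand), a chromosome that also holds partial copies of it, so reads from the shared stretch may have been split or lost. In RNA1 NOTCH2 had 56.5, 62.2 and 61.5 CPM in the Puro libraries and 91.4, 88.6 and 91.4 CPM in the ABCC1 libraries. The lines stood far apart, with a log2FC of 0.59 (SE 0.05, adjusted p = 6.04e-06, edgeR). In RNA2 the values were 23.4, 23.9 and 20.9 CPM against 42.6, 39.5 and 33.3 CPM, again without overlap, and the log2FC was 0.75 (SE 0.16, adjusted p = 0.0196, edgeR). In RNA3 they were 44.1, 44.3 and 35.5 CPM against 45.7, 46.8 and 45.3 CPM. The ABCC1 libraries still lay above the Puro libraries, but by little, and NOTCH2 did not pass the test there (log2FC 0.15, SE 0.16, adjusted p = 0.712, edgeR).

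Background weighed on NOTCH2 more in the Puro cells than in the ABCC1-overexpressing cells, at 42.3% against 13.2% of the level in RNA2 and 63.6% against 45.1% in RNA3. After its subtraction the level in RNA3 was 0.895 ± 0.367 CPM per kilobase in Puro and 1.5 ± 0.165 in ABCC1 libraries (SD, n = 3), a ratio of 1.68 with no overlap, and in RNA2 the ratio was 2.55. No model was fitted to the subtracted levels. In RNA2 the call was lost without Puro replicate 3, ABCC1 replicate 1 or ABCC1 replicate 2 (adjusted p = 0.144, 0.0593 and 0.104, edgeR), with a log2FC of 0.68 to 0.75, and with background as a covariate (log2FC 0.55, adjusted p = 0.777, edgeR).

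NOTCH1, the receptor most studied in neural progenitors, had 1.06 to 1.79 CPM in the Puro libraries and 1.17 to 1.55 CPM in the ABCC1 libraries of RNA1, so the lines overlapped. It passed the test in no experiment (log2FC −0.12, −0.73 and −0.31, adjusted p = 0.668, 0.239 and 0.417, edgeR). With background as a covariate its log2FC in RNA2 turned to 0.47, and with background subtracted the log2 ratio was −0.20. NOTCH3, better known from vascular smooth muscle, had 1.71 to 2.16 CPM in the Puro libraries of RNA1 and 2.17 to 2.45 CPM in the ABCC1 libraries, with no overlap but a log2FC of 0.22 that did not pass (SE 0.13, adjusted p = 0.221, edgeR). In RNA3 it had 25.5, 20.8 and 26.3 CPM against 17.3, 18.2 and 15.6 CPM. The lines were apart in the other direction there, with a log2FC of −0.51 (SE 0.17, adjusted p = 0.0800, edgeR), and it passed in a single leave-one-out fit, without Puro replicate 2 (adjusted p = 0.0167, edgeR), and with a block on replicate number (0.0370). Background was 56.8% and 63.7% of NOTCH3 in the Puro and ABCC1 cells of RNA3. After its subtraction NOTCH3 was 1.69-fold lower in the ABCC1 libraries of RNA3, with no overlap of the lines.

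Of the 4 ligands among the members, DLL3 was the only one that passed the test, and it did so in RNA1 alone. In RNA1 it had 43.0, 36.3 and 35.1 CPM in the Puro libraries and 22.3, 22.5 and 29.7 CPM in the ABCC1 libraries. The lines did not overlap, although ABCC1 replicate 3 lay nearer the controls, and the log2FC was −0.62 (SE 0.12, adjusted p = 0.00331, edgeR). The call held without any library in turn but not with the spread shared over all 18 libraries (adjusted p = 0.0595, edgeR) or with background as a covariate (0.0875), where the log2FC was −0.68. Of the DLL3 level in RNA1, background made up 0.0333% in Puro and 0.0425% in ABCC1 cells. In RNA2 DLL3 had 24.5 to 26.4 CPM in the Puro libraries and 26.1 to 36.0 CPM in the ABCC1 libraries, and in RNA3 23.2 to 31.7 and 23.7 to 30.2 CPM. The lines overlapped in both, with a log2FC of 0.21 and −0.02 (adjusted p = 0.446 and 0.974, edgeR).

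JAG1 encodes a ligand that, when mutated, causes Alagille syndrome. In RNA2 it had 8.31, 6.66 and 6.57 CPM in the Puro libraries and 2.02, 3.52 and 3.89 CPM in the ABCC1 libraries. The lines were well apart, with a log2FC of −1.19 (SE 0.31), but the adjusted p of 0.05005 (edgeR) lay just above the threshold, and 7 of 13 alternatives called it, DESeq2 (adjusted p = 0.0142) among them. With a library left out, 1 of 6 fits called it, and with background as a covariate the log2FC was −0.54 (adjusted p = 0.929, edgeR). Background amounted to 50.2% and 60.3% of JAG1 in the Puro and ABCC1 cells of RNA2, and after its subtraction the levels were 0.568 ± 0.102 and 0.198 ± 0.0228 CPM per kilobase (SD, n = 3), still apart. In RNA1, at 0.844 to 1.27 and 0.777 to 1.02 CPM, and in RNA3, at 15.9 to 17.9 and 13.5 to 17.5 CPM, the lines overlapped (adjusted p = 0.146 and 0.697, edgeR). In the annotation an antisense gene shares 79 exon bases with JAG1 and another gene on its strand 286, and their counts did not exceed 56 and 3 in any library.

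JAG2, a close relative of JAG1, had 3.12 to 3.97 CPM in Puro and 3.34 to 4.38 CPM in ABCC1 libraries in RNA1 and passed the test in no experiment (log2FC 0.06, −0.21 and −0.44, adjusted p = 0.769, 0.648 and 0.187, edgeR). In RNA3 its lines did not overlap, with 17.9 to 21.2 CPM against 13.6 to 14.5 CPM, where background was over 52% of both. DLL1 was at the edge of detection in RNA1, with 19, 12 and 7 counts for Puro against 4, 7 and 6 for ABCC1. Without the filter on low counts its log2FC was −1.61 (adjusted p = 0.00303, edgeR), and by DESeq2 −1.58 (adjusted p = 0.0708). With a library left out, it could be tested in 4 fits and passed in 3, without Puro replicate 3, ABCC1 replicate 2 or ABCC1 replicate 3 (adjusted p = 0.0142, 0.00748 and 0.0191, edgeR). It did not pass without ABCC1 replicate 1 (0.0552) or in the joint fit (0.127). In RNA2 and RNA3 its log2FC was −1.54 and −0.50 (adjusted p = 0.109 and 0.465, edgeR), where background was at least 78.4% of its level in each group. With background as a covariate the log2FC in RNA2 was −1.16 (adjusted p = 0.894, edgeR), and in the joint fit DLL1 passed there (log2FC −1.52, adjusted p = 0.0136, edgeR).

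**Figure D3:**
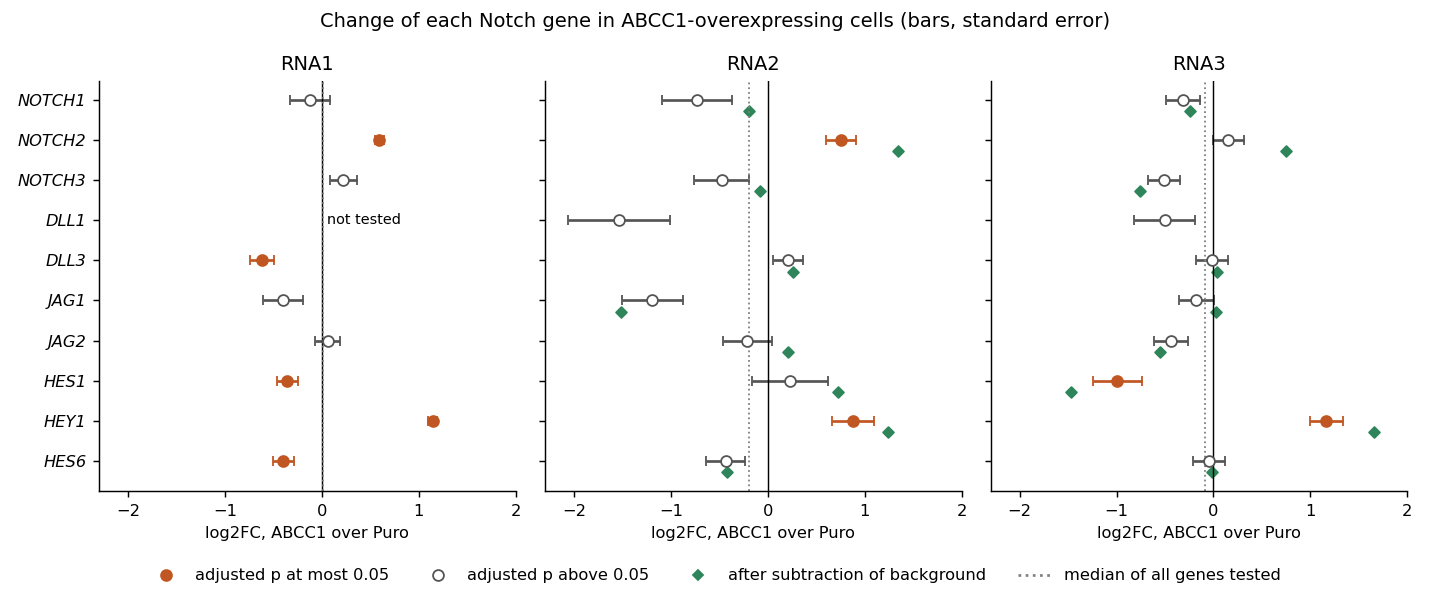
log2FC of each member in ABCC1-overexpressing over Puro cells (x axis) with its standard error, in RNA1, RNA2 and RNA3, with filled circles for an adjusted p of at most 0.05, the median of all genes tested as a dotted line, and diamonds for the log2 ratio of group means after subtraction of background. HEY1 is filled and right of 0 in all 3 panels, at 1.14, 0.88 and 1.17, and the diamonds of NOTCH2, HES1 and HEY1 lie farther from 0 than the circles in RNA2 and RNA3.

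Whether the effect of ABCC1 on a member differed between the experiments was tested by the interaction of experiment and line in a joint fit of all 18 libraries. None of the 10 members passed by edgeR's quasi-likelihood test, where 1.19% of 46225 genes passed. At an unadjusted p under 0.05 there were 5, namely NOTCH2, NOTCH3, DLL3, JAG1 and HES1, whose adjusted p-values were 0.458, 0.481, 0.198, 0.190 and 0.239 (edgeR). DESeq2, which called 2.77% of the genes it gave an adjusted p, called NOTCH2 (adjusted p = 0.0118), and so did edgeR on genes with at least 10 counts in every library (0.0455). HEY1 had an adjusted p of 0.794 (edgeR). Its log2FC in RNA2 differed from that in RNA1 by −0.35 (SE 0.21). Between RNA1 and the repeats the kit and the background cannot be told apart from the cells used. In a fit of RNA2 and RNA3 alone, which shared a kit, the adjusted p-values of the members ran from 0.711 to 0.998 (edgeR).

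For the members called in at least 2 experiments, the genes whose levels followed theirs most closely were sought among 16689 genes tested in all experiments, by Pearson's r over the 18 libraries after centring each experiment on its mean. The libraries share the contrast of the lines, so r describes mostly that contrast. HEY1 was followed most closely by TFRC, the transferrin receptor (r = 0.977), and by NRG2, a neuregulin ligand (r = 0.972). TFRC rose by 1.28, 1.01 and 1.07 on the log2 scale in RNA1, RNA2 and RNA3 (adjusted p = 1.02e-06, 0.00603 and 1.26e-05, edgeR), and NRG2 by 0.87, 0.76 and 1.02. NOTCH2 was followed by CTSF, which encodes the lysosomal protease cathepsin F (r = 0.956), and PTPRR, a receptor-type phosphatase (r = 0.936). The nearest to HES1 were LINC03073 (r = 0.862) and ISLR (r = 0.820). The log2FC of ISLR was −0.36, 0.07 and −1.0 in RNA1, RNA2 and RNA3 (adjusted p = 0.0109, 0.891 and 8.44e-05, edgeR).

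A further 52 genes of the pathway were followed by role, of which 44, 52 and 51 could be tested in RNA1, RNA2 and RNA3. In RNA1, 13 passed the test, 4 higher and 9 lower, beside 37.6% of all genes. In RNA2, 2 passed, both higher, and in RNA3, 2 passed, both lower, beside 1.7% and 2.8% of all genes. The median log2FC of the list was −0.0035, 0.20 and 0.02 in the 3 experiments. These counts moved with the test. DESeq2 called 12 of 49 in RNA1, 4 higher and 8 lower, where it called 23.4% of all genes, 10.4% higher and 13% lower. In RNA2 it called 11 of 45, 9 higher and 2 lower, beside 18.6% of all genes, 16.2% higher and 2.35% lower. In RNA3 the direction turned, with 8 higher and 1 lower of 35 by DESeq2, beside 14.2% of all genes, 12.9% higher and 1.27% lower, and with 2 higher and 1 lower by edgeR with RLE size factors.

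Among those that passed, the gene with the largest change was DLK1, a non-canonical ligand that inhibits Notch and marks immature neuroendocrine cells. It fell from 993 ± 69.4 to 444 ± 74.2 CPM in RNA1 (SD, n = 3), with a log2FC of −1.16 (adjusted p = 3.71e-05, edgeR). In RNA3 it fell from 548 ± 164 to 257 ± 19.6 CPM, with a log2FC of −1.10 (adjusted p = 2.86e-04, edgeR). In RNA2 DLK1 had 260 ± 32.3 and 212 ± 53.3 CPM and did not pass (log2FC −0.30, adjusted p = 0.377, edgeR). NEURL1B, a ubiquitin ligase that acts on Notch ligands, also fell in RNA1 and RNA3, by 0.54 and 0.58 on the log2 scale (adjusted p = 5.24e-05 and 0.0367, edgeR), although its lines overlapped in RNA3. With DESeq2, RLE size factors or no filter on low counts, 1 in place of 2 genes of the list was called lower in RNA3. The log2FC of NEURL1B in RNA2 was −0.54 with an adjusted p of 0.109 (edgeR).

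CIR1, a corepressor that binds RBPJ, rose in RNA1 and RNA2 by 0.32 and 0.69 on the log2 scale (adjusted p = 0.0176 and 0.0307, edgeR). SPEN, another RBPJ corepressor, rose in RNA2 by 0.74 (adjusted p = 0.0497, edgeR). RBPJ itself passed in none, at 222 ± 5.63 and 211 ± 5.61 CPM in RNA1. DTX1, a ubiquitin ligase that is also a Notch target, fell by 1.15 in RNA1 (adjusted p = 3.60e-05, edgeR). Its log2FC of −0.19 in RNA2 and 0.12 in RNA3 differed from that by the interaction of experiment and line (adjusted p = 0.0249, edgeR), the 1 gene of these 52 to do so. DESeq2 called 2, DTX1 and DLK1 (adjusted p = 0.00360 and 0.0409, against 0.293 for DLK1 by edgeR). HES7, a HES gene of the segmentation clock, rose in RNA1 by 1.07 (adjusted p = 0.00367, edgeR) at a low level of 1.58 ± 0.563 and 3.39 ± 0.577 CPM. With background as a covariate, 0 genes of the list were called higher in RNA1, so the calls of CIR1 and HES7 were lost. In RNA2 the calls of the list ranged from 0 to 4 with a library left out, so those of CIR1 and SPEN did not hold in every fit.

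Of 9 genes of the proteases that release the receptor, 3 passed in RNA1, ADAM10 and APH1B among them and both lower, a share near the 37.6% of all genes, and 0 passed in RNA2 and RNA3 by edgeR. Their log2FC ran from −0.50 to 0.21 in RNA1, from −0.48 to 0.47 in RNA2 and from −0.24 to 0.38 in RNA3. ADAM10, the protease that first cuts the ligand-bound receptor, fell by 0.13 in RNA1 (adjusted p = 0.0282, edgeR).

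**Figure D4:**
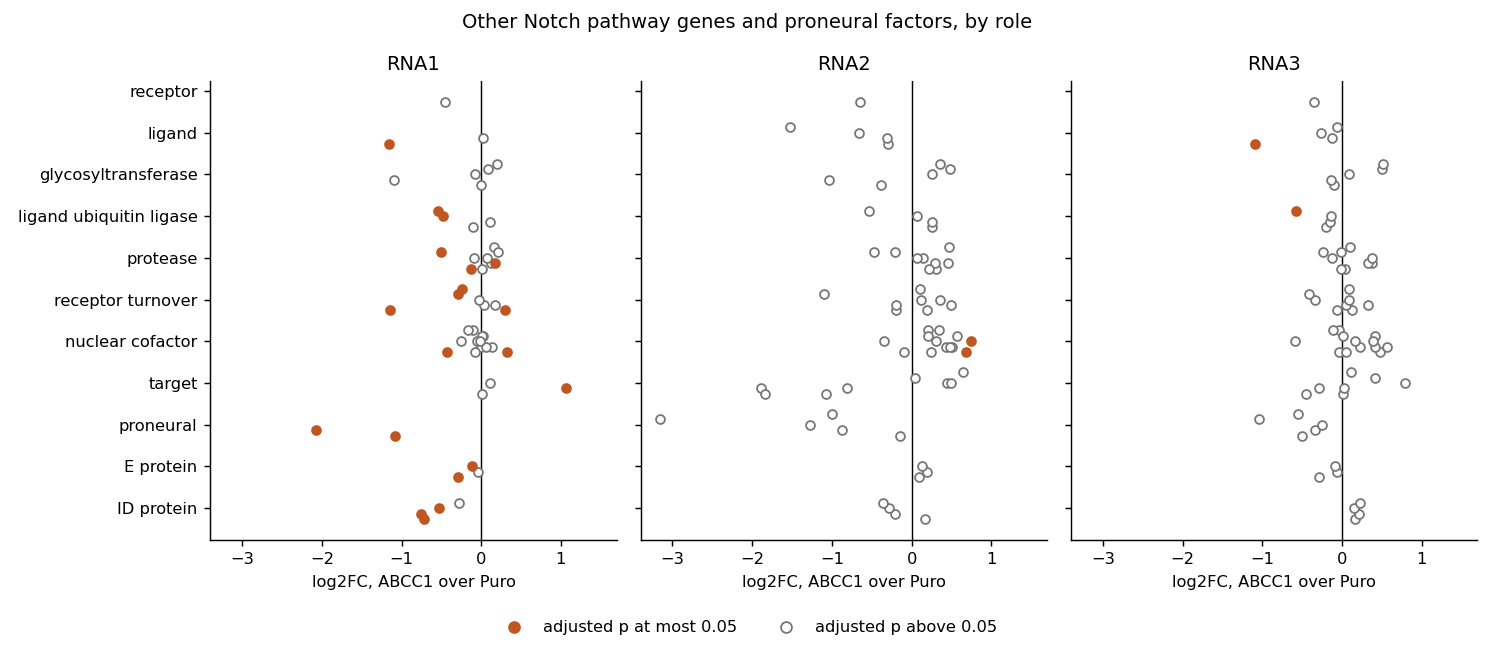
log2FC in ABCC1-overexpressing over Puro cells (x axis) of the other pathway genes and of proneural factors and their partners, each circle a gene, by role (y axis, with a small vertical offset for legibility), filled at an adjusted p of at most 0.05. In RNA1 filled circles of the proneural, E protein and ID protein rows all lie left of 0, and in RNA3 the filled circles are DLK1 and NEURL1B.

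HES and HEY proteins repress proneural bHLH factors, which were followed with their E protein and ID protein partners. In RNA1, 9 of the 12 listed could be tested and 7 passed, all lower, where 19.7% of all genes were lower, and the median log2FC was −0.53. With background as a covariate 4 passed and in the joint fit 3, again all lower, but the share of all genes called in those fits was not computed. NEUROD1 fell from 2.27 ± 0.180 to 0.532 ± 0.0751 CPM (log2FC −2.07, adjusted p = 7.04e-06, edgeR). ID2, an inhibitor that binds the E protein partners of proneural factors, fell by 0.76 (adjusted p = 3.56e-06, edgeR). Of the 10 adrenergic markers, 6 were lower and 1 higher in RNA1, where 19.7% of all genes were lower and 17.9% higher. In RNA2, 1 was lower and 0 were higher, beside 0.458% and 1.25% of all genes, and in RNA3, 3 were lower and 1 higher, beside 0.767% and 2.03%.

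In RNA2 and RNA3 none of the 12 proneural and partner genes passed by edgeR or by DESeq2, with 2 at an unadjusted p under 0.05 in each. By the interaction of experiment and line, 0 of the 12 differed between experiments by edgeR's test, with 4 at an unadjusted p under 0.05, and DESeq2 called 1.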

How the data were processed

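RNA of 18 libraries was sequenced in 3 experiments. The authors converted reads with bcl2fastq 2.18, aligned them with STAR 2.7.3a and counted read pairs over exons with featureCounts (Subread 2.0.0) on GRCh37, per the submitters' processing notes and the paper, and deposited the raw counts per gene. Strand was not used, so overlapping genes on opposite strands can share reads.

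Gene IDs were given symbols from a reference table, which matched 51996 of 57905. Each experiment was fitted in R 4.3.3 with edgeR 4.0.16 (filterByExpr at a minimum count of 10, TMM, robust quasi-likelihood test, two-sided). The Benjamini-Hochberg adjustment ran over every gene with a test, and a gene was called at an adjusted p of at most 0.05. CPM are counts scaled to TMM-normalized library totals. Differences between experiments came from a joint fit. The paper used DESeq2, which is given here as an alternative (1.42.0). Exact permutation tests used log2 CPM with 0.1 added. Background was the level over olfactory receptor genes. Its subtraction was added after seeing the data, while its use as a covariate was planned.

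The fits were tested on data simulated from the real libraries. Simulated 2-fold changes were recovered at 100% in RNA1, 46% in RNA2, 54% in RNA3 and 36% for the interaction. A gene that did not pass in the repeats or in the interaction may therefore still have changed.

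The members and lists were chosen with earlier results of these data known. All 10 members are described. Of the other lists, genes called in the same direction in at least 2 experiments and the 3 called genes with the largest absolute log2FC in each experiment were named. RBPJ, ADAM10, APH1B and the values of DLK1 and NEURL1B in the experiments where they were not called were added after their values were seen. Some listed genes that entered the counts are not reported here. Pairs of libraries within a group differed by chi-square values of 1.53 to 26.1 per degree of freedom, more than sampling noise, and all counted as replicates. Depth limits the precision of counts, and intervals of error here cover the spread between libraries only.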

Additional observations from a re-analysis of the deposited data

Results flagged for a closer look

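The effect of ABCC1 on DTX1, a ubiquitin ligase and Notch target, differed between experiments by the interaction in the joint fit (adjusted p = 0.0249, edgeR's quasi-likelihood test), with a log2FC of −1.15 in RNA1, −0.19 in RNA2 and 0.12 in RNA3. Its level was 6.00 ± 0.124 CPM in Puro and 2.66 ± 0.443 CPM in ABCC1 libraries of RNA1 (SD, n = 3), 9.05 ± 1.53 and 7.93 ± 0.937 CPM in RNA2, and 12.6 ± 1.33 and 13.8 ± 3.06 CPM in RNA3. Background amounted to 0.355% and 0.666% of DTX1 in the Puro and ABCC1 cells of RNA1, 27.8% and 16.7% in RNA2 and 54.2% and 39.1% in RNA3. Its part in the difference was not tested.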

How the results depend on the processing

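The alternatives were DESeq2, RLE size factors, no filter on low counts, at least 10 counts in every library, a block on replicate number, background reads as a covariate, each library left out in turn and, within each experiment, a joint fit of all 18 libraries. Over 116 such values of the 9 member calls, 0 changed direction and 91 passed the threshold. The number of members called in RNA1, 5, became 2 with the covariate and 2 in the joint fit, and ranged from 3 to 6 with a library left out. In RNA2 it was 2 and became 0 with the covariate and 4 in the joint fit, and ranged from 0 to 3 with a library left out, at 0 without Puro replicate 3, ABCC1 replicate 1 or ABCC1 replicate 2 and at 1 without Puro replicate 1 or 2. In RNA3 it was 2 and became 1 with DESeq2, which gave HES1 no adjusted p (log2FC −0.91, unadjusted p = 0.00176), and 1 with the covariate, and ranged from 1 to 3, at 1 without Puro replicate 1, Puro replicate 3 or ABCC1 replicate 1. The covariate separates the lines without overlap in all 3 experiments, so its effect and that of the line are partly confounded in each. For the interaction, 0 members became 1 with DESeq2, 1 with at least 10 counts in every library and 0 to 1 with a library left out, JAG1 without ABCC1 replicate 3 of RNA2 (adjusted p = 0.0463, edgeR). Beyond what the alternatives themselves change, the cause of these moves was not tested.

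Members that passed no test changed sign as follows. With the covariate, NOTCH1 and NOTCH3 in RNA2 went from −0.73 and −0.48 to 0.47 and 0.32. JAG2 in RNA1 became −0.11, DLL3 and JAG2 in RNA2 became −0.10 and 0.16, and JAG1 in RNA3 became 0.036. In RNA3, DLL3 became 0.056 with DESeq2, 0.042 with RLE size factors, 0.016 with at least 10 counts in every library and 0.058 in the joint fit, and HES6 became 0.036, 0.022 and 0.039 with DESeq2, RLE size factors and the joint fit. With a library left out, the log2FC of NOTCH1 in RNA1 ranged from −0.28 to 0.11, that of JAG2 from −0.071 to 0.13 in RNA1 and from −0.35 to 0.010 in RNA2, and in RNA3 that of DLL3 from −0.12 to 0.13 and that of HES6 from −0.18 to 0.15. With background subtracted, DLL3 and JAG1 in RNA3 became 0.036 and 0.025 and JAG2 in RNA2 became 0.21.

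Replicate numbers are shared by the lines, but same-numbered libraries deviated together with correlations of −0.22 to −0.02 in RNA2, −0.06 to −0.01 in RNA1 and −0.09 to 0.19 in RNA3, so the numbers were not taken to pair them. Under the block on replicate number, 5, 3 and 3 members were called in RNA1, RNA2 and RNA3 and 0 in the interaction, with JAG1 in RNA2 (adjusted p = 0.0475, edgeR) and NOTCH3 in RNA3 (adjusted p = 0.0370, edgeR) added. Among the other 52 pathway genes, the calls ranged over the alternatives from 3 to 20 in RNA1 against 13, from 0 to 14 in RNA2 against 2 and from 1 to 12 in RNA3 against 2. In RNA3 there were 12 without Puro replicate 2. The proneural and partner genes ranged from 3 to 8 against 7 in RNA1 and from 0 to 2 against 0 in RNA2 and RNA3. The share of all genes called was computed for the main fits and DESeq2 only. Counts of members and listed genes under the other alternatives therefore cannot be set against it. Low counts limit the precision of DLL1, at 4 to 19 in the libraries of RNA1.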

Other observations

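The mesenchymal markers, which define the other state of neuroblastoma cells, ranged in the Puro cells of RNA1 from 0.0257 CPM per kilobase for YAP1, a transcriptional coactivator, to 40.5 for VIM, the filament protein vimentin. In RNA1, 5 of 11 tested rose and 3 fell with ABCC1 by edgeR's test, where 17.9% of all genes rose and 19.7% fell. SNAI2, a repressor that marks migratory neural crest, stood at 2.64 CPM per kilobase in Puro and 5.06 in ABCC1 libraries of RNA1, and IFI16, an interferon-inducible DNA sensor, at 11.1 and 18.1. Other members of the list were lower in the ABCC1 libraries, FN1, which encodes fibronectin, at 0.751 and 0.405, PRRX1, a mesenchymal homeobox factor, at 7.35 and 6.11, and FOSL2, an AP-1 subunit, at 10.2 and 9.08. These genes were named after their values were seen.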
